A study of Mus musculus with 6 samples.

Results

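Intermediate filaments are cytoskeletal polymers, and those built of neurofilament chains help to set the calibre of axons. Here 8 genes of this system were followed in a motor neuron-like cell line after knockdown of the RNA-binding protein gene Qk. The 8 genes were chosen by name as the neuronal and precursor filament subunits (Prph, Vim, Nefl, Nefm, Nefh, Ina and Nes) and the linker Dst, out of 23038 genes listed for every library. All 8 were present under their symbols and all 8 had counts in each of the 6 libraries. The cells were NSC-34, a mouse line that arose from the fusion of embryonic spinal motor neurons with a neuroblastoma, grown in DMEM with 10% fetal calf serum. The control group, siNC, held 3 libraries from cells given a control siRNA, and the knockdown group, siQk, held 3 libraries from cells given siRNA against Qk. The labels speak of 3 different siRNAs against Qk but do not tie any of them to a library, so a difference among the siQk libraries cannot be told apart from a difference among siRNAs. The study's methods give collection at 72 h after transfection for knockdown cells. Every library came from the same hybrid line, so the values describe cultured cells and not spinal cord, and with RNA from whole cultures fewer cells of a kind and less RNA per cell cannot be told apart.

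Subunits of the neuronal filaments assemble as obligate or preferred partners. The neurofilament light chain encoded by Nefl forms the core with the medium chain (Nefm), the heavy chain (Nefh) and α-internexin (Ina), which together make up the type IV neuronal subunits. Peripherin (Prph) and vimentin (Vim) are type III subunits that can form filaments on their own, nestin (Nes) is a large subunit of precursor cells that assembles with vimentin, and dystonin (Dst) is a giant plakin whose forms link filaments to microtubules and actin. Qk encodes the Quaking proteins, which bind RNA at motifs built on ACTAAC or ACTAAT and act in splicing, transport and stability of mRNA.

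The letters ACTAAC or ACTAAT, read on the sense strand of the mRNA only, were searched in the longest coding transcript of each gene (GENCODE M21 on GRCm38), and the matches are shown because they are the only places in these mature transcripts where the letters of the Quaking motif occur. Vim held 2 matches in 2193 bases, Nefl held 2 in 3380 bases, Dst held 2 in 23279 bases, and Ina and Nefm held 1 each, whereas Nefh, Prph and Nes held none. Of all 21901 genes with a coding transcript, 43.3% held at least 1 match. Among genes with a transcript length within 20% of the member's, at least 1 match was present in 35.3% for Vim, 49.2% for Nefl, 47.7% for Ina, 52.4% for Nefm, 55.7% for Nefh, 31.4% for Prph and 71.2% for Nes. For Dst the comparison rested on 21 genes, whose median was 5 matches. Capitals mark the motif, and each window holds 30 bases.
Vim, junction of exons 5 and 6: gcccttaaaggcACTAACgagtccctggag
Vim, exon 8: aacctgagagaaACTAACctggagtcactt
Nefl, exon 1: gcggaagacgccACTAACgagaagcaggcg
Nefl, 3′ UTR: ataaatgaattcACTAATgttcatgtgcaa
Nefm, exon 3: ctgaggttctccACTAACatccatgagagt
Ina, exon 1: aagatcatccgcACTAACgagaaggagcag
Dst, exon 17: gtaacccgcgcaACTAACgagcttatctgg
Dst, exon 49: gtgtttgagaaaACTAATaacttgtcaagg
The motif lies on the plus strand at chr14:68084422-68084427 and chr14:68087775-68087780 in Nefl, at chr19:47015028-47015033 in Ina, at chr1:34164136-34164141 and chr1:34213016-34213021 in Dst and at chr2:13581615-13581620 in Vim. The other Vim match begins at chr2:13579544 and ends at chr2:13580020, with the intron between exons 5 and 6 inside that span. The Nefm match lies on the minus strand at chr14:68115989-68115994 and occurs in 1 of 2 coding transcripts of that gene. It lies outside the span that the RefSeq table gives for Nefm (chr14:68119545-68125004). The Dst matches in exons 17 and 49 of 98 occur in 8 and 5 of its 14 coding transcripts. The Vim matches at the junction and in exon 8 occur in 2 and 1 of its 3 coding transcripts. With the next 3 bases included, the letters ACTAACGAG were shared by Vim, Nefl, Ina and Dst, and by 51 of the 21901 genes (0.233%), a longer string that was noticed after the windows had been read. These matches describe letters in mature transcripts. Introns were not searched, and a match is not evidence of binding.

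The authors' estimated read count per gene is a sum over all transcripts of the gene, and the level in RPKM scales that count by the exon length of the gene and the total of the library. Library totals were 43000503 to 53565950 counts. Genes whose average log2 CPM (the count scaled to library size only) lay above 0 were kept, which left 12665 genes and all 8 members. The edgeR quasi-likelihood test was fitted on all of them, and a gene was called at p under 0.01 with a Benjamini-Hochberg adjusted p under 0.1. Qk itself stood at 9.68, 8.18 and 14.9 RPKM in siNC 1 to 3 and at 1.39, 1.71 and 1.11 RPKM in siQk 1 to 3, so that every siQk library was below every siNC library and the siQk mean was 12.8% of the siNC mean. Its log2 fold change was -2.997 (SE 0.34, n = 3 per group), and the adjusted p was 0.0149 (edgeR quasi-likelihood test with Benjamini-Hochberg adjustment). Qk was the only gene called, which is 0.0079% of the genes tested. Leaving out siNC 1 took the adjusted p of Qk to 0.125 by the same test, with no gene called. P-values here set a difference against the spread between libraries of a group, which in siQk may also hold differences among siRNAs.

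None of the 8 members was called. None reached an unadjusted p under 0.05, against 366 of the 12665 genes (2.89%), and none had siQk libraries that all lay to the same side of the siNC libraries, against 1079 genes (8.52%). The edgeR exact test, DESeq2 and limma-trend also called 0 of the 8, and each left 0 of the 8 at an unadjusted p under 0.05. The adjusted p was 0.9996 for each member by the edgeR quasi-likelihood test with Benjamini-Hochberg adjustment, 5 of the 8 fold changes were above 0 and 3 were below, and the median log2 fold change was 0.06 beside 0.0034 over all genes tested. The spread between libraries of a group was wide for some members, so the intervals below give the range of change that the data leave possible. They are 95% intervals from limma-trend and are centred on its estimates, not on the edgeR fold changes beside them.

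**Figure D1:**
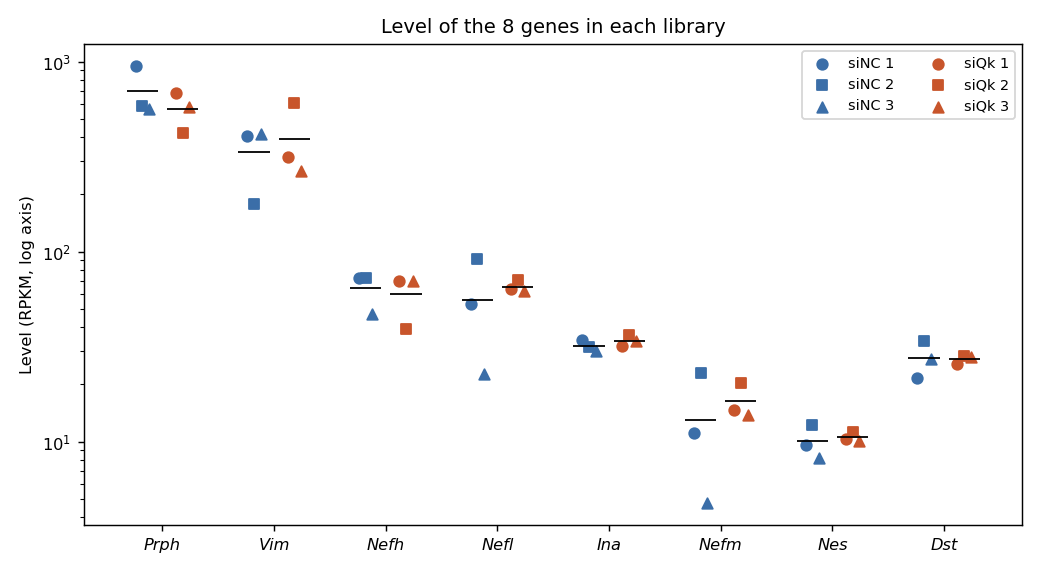
Level of each of the 8 genes in RPKM on a log axis, with 1 point per library (blue siNC, orange siQk, shapes for the replicate number) and a black bar at each group mean (n = 3). The points of the 2 groups interleave for every gene, Nefm and Nefl spread widest in siNC, and Ina keeps within 29.8 to 36.3 RPKM.

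The type III subunits were the most abundant. Peripherin, the type III subunit of neurons of the peripheral nervous system and of motor neurons, stood at 949, 586 and 559 RPKM in siNC 1 to 3 and at 681, 421 and 580 RPKM in siQk 1 to 3. The highest library was siNC 1 and the lowest was siQk 2, and the groups overlapped, because siQk 1 exceeded both siNC 2 and siNC 3. Prph ranked between 27 and 78 among all genes by RPKM in these libraries. The mean was 698 ± 218 for siNC against 561 ± 131 RPKM for siQk (SD, n = 3 each), with a log2 fold change of -0.34 (SE 0.32) and a 95% interval from limma-trend of -0.87 to 0.21, or 0.548-fold to 1.16-fold. The unadjusted p of 0.19 was the smallest among the 8 in the model fitted across all genes by the edgeR quasi-likelihood test, and the exact two-sided permutation p was 0.5. Leaving out siNC 1 moved the log2 fold change to -0.06, and it stayed below 0 with each library left out in turn.

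Vimentin, the type III subunit of mesenchymal and precursor cells, stood at 405, 178 and 417 RPKM in siNC 1 to 3 and at 314, 602 and 264 RPKM in siQk 1 to 3. The lowest library was siNC 2 and the highest was siQk 2, a 3.39-fold span, and in the remaining 4 libraries both siNC values lay above both siQk values. The mean was 333 ± 135 for siNC against 393 ± 182 RPKM for siQk (SD, n = 3 each). The log2 fold change was 0.20 (SE 0.55, 95% interval -0.63 to 1.07, 0.644-fold to 2.11-fold) and the exact two-sided permutation p was 0.8. Its direction depended on single libraries: it was -0.12 without siNC 2 and -0.24 without siQk 2.

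Among the type IV subunits, the light and medium neurofilament chains varied together. Nefl, the core subunit, stood at 52.8, 91.3 and 22.7 RPKM in siNC 1 to 3 and at 63.4, 70.4 and 62.0 RPKM in siQk 1 to 3. Nefm, which adds a long tail to the filament, stood at 11.1, 23.0 and 4.75 RPKM in siNC 1 to 3 and at 14.6, 20.3 and 13.9 RPKM in siQk 1 to 3. In both genes siNC 3 was lowest and siNC 2 highest, and the 3 siQk libraries lay inside the siNC range. The mean of Nefl was 55.6 ± 34.4 RPKM in siNC and 65.3 ± 4.51 RPKM in siQk, and that of Nefm was 12.9 ± 9.28 RPKM and 16.3 ± 3.54 RPKM (SD, n = 3 each). The log2 fold change was 0.22 (SE 0.56) for Nefl, with a 95% interval of 0.733-fold to 2.45-fold, and 0.32 (SE 0.65) for Nefm, with an interval of 0.734-fold to 2.97-fold. These intervals come from limma-trend, whose own log2 estimates were higher, 0.42 for Nefl and 0.56 for Nefm. The exact two-sided permutation p was 0.7 and 0.5. Without siNC 3 the log2 fold changes were -0.14 and -0.06, and without siNC 2 they were 0.75 and 0.998, with an unadjusted p under 0.05 for both in a fit where 411 genes reached it and an adjusted p of 1 for both by the edgeR quasi-likelihood test.

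Nefh, the heavy chain with the long phosphorylated tail, was lowest in siQk 2, where its deviation from the 6-library mean was -0.64 on the log2 scale against 0.31 for Nefl and 0.61 for Nefm. It stood at 72.6, 73.0 and 47.2 RPKM in siNC 1 to 3 and at 69.6, 39.2 and 69.9 RPKM in siQk 1 to 3. The groups shared 1 low library each, siNC 3 and siQk 2, with the other 4 libraries between 69.6 and 73.0 RPKM. The mean was 64.3 ± 14.8 for siNC against 59.6 ± 17.6 RPKM for siQk (SD, n = 3 each), the log2 fold change was -0.13 (SE 0.34, 0.605-fold to 1.33-fold) and the exact two-sided permutation p was 0.5. It became 0.10 without siQk 2.

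α-Internexin (Ina), the subunit that appears early in neuronal development, was the steadiest of the 8. It stood at 34.4, 31.5 and 29.8 RPKM in siNC 1 to 3 and at 31.8, 36.3 and 33.7 RPKM in siQk 1 to 3, a 1.22-fold span. The within-group SD of its log2 level, 0.09, lay at the 3.21st percentile of all genes tested, whereas those of Nefm (0.80), Nefl (0.69) and Vim (0.68) lay at the 97.5th, 95.4th and 95.2nd percentiles. Its log2 fold change was 0.06 (SE 0.07, 0.829-fold to 1.32-fold), with means of 31.9 ± 2.30 for siNC against 33.9 ± 2.27 RPKM for siQk (SD, n = 3 each) and an exact two-sided permutation p of 0.4.

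The siQk values of nestin and dystonin lay within those of siNC. Nes, the precursor subunit, stood at 9.61, 12.3 and 8.21 RPKM in siNC 1 to 3 and at 10.3, 11.2 and 10.0 RPKM in siQk 1 to 3, with all 3 siQk libraries inside the siNC range. Its log2 fold change was 0.05 (SE 0.15, 0.798-fold to 1.37-fold), and the exact two-sided permutation p was 0.8. Dst stood at 21.7, 33.9 and 27.2 RPKM in siNC 1 to 3 and at 25.5, 28.3 and 27.8 RPKM in siQk 1 to 3, so its siQk libraries also lay inside the siNC range. The mean of Dst was 27.6 ± 6.12 for siNC against 27.2 ± 1.48 RPKM for siQk (SD, n = 3 each), with a log2 fold change of -0.04 (SE 0.19, 0.75-fold to 1.29-fold) and an exact two-sided permutation p of 1.0. Dst rested on 25877 to 37613 counts per library. Its value sums all forms of a gene with many splice forms, so a switch between forms would not show in it. The study reports that use of an alternative exon of Dst follows expression of Qki5, a Quaking protein, and exon use was not measured here. With 3 libraries against 3 the exact test has 20 arrangements and cannot go below 0.1.

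**Figure D2:**
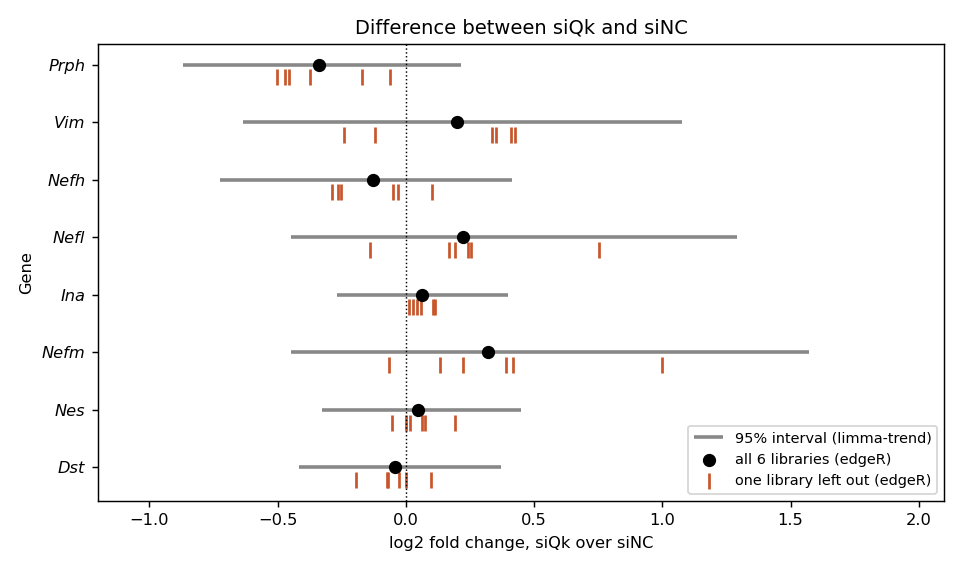
Log2 fold change of siQk over siNC for each gene, with black points for all 6 libraries (edgeR), grey bars for the 95% interval from limma-trend, which is centred on its own estimate, and orange ticks for the value with 1 library left out. Every grey bar crosses 0, and the ticks of Nefl, Nefm, Nefh, Vim, Nes and Dst fall on both sides of it.

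Per kilobase, Prph had the highest median level over the 6 libraries, 583 RPKM, followed by Vim at 359.5 RPKM. Prph exceeded Vim in 5 of the 6 libraries, and their ranges overlapped. Vim exceeded Nefh (median 69.8 RPKM) in all 6, and this was the only pair of neighbours whose ranges did not overlap. Nefh exceeded Nefl (62.7 RPKM) in 4 libraries, Nefl exceeded Ina (32.7 RPKM) in 5 and Ina exceeded Dst (27.5 RPKM) in 5. Dst exceeded Nefm (14.2 RPKM) in all 6, and Nefm exceeded Nes (10.2 RPKM) in 5.

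The group difference of each member was smaller than the within-group SD of its log2 level. Relative to its 6-library mean on the log2 scale, siNC 3 was low in Nefl (-1.24) and Nefm (-1.40), siNC 2 was high in Nefl (0.68) and Nefm (0.79) and low in Vim (-0.96), and siQk 2 was high in Vim (0.81) and Nefm (0.61) and low in Nefh (-0.64) and Prph (-0.56). In siNC 1 the largest value was that of Prph (0.64). In siQk 1 and siQk 3 the value farthest from the mean was that of Vim in siQk 3 (-0.36).

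**Figure D3:**
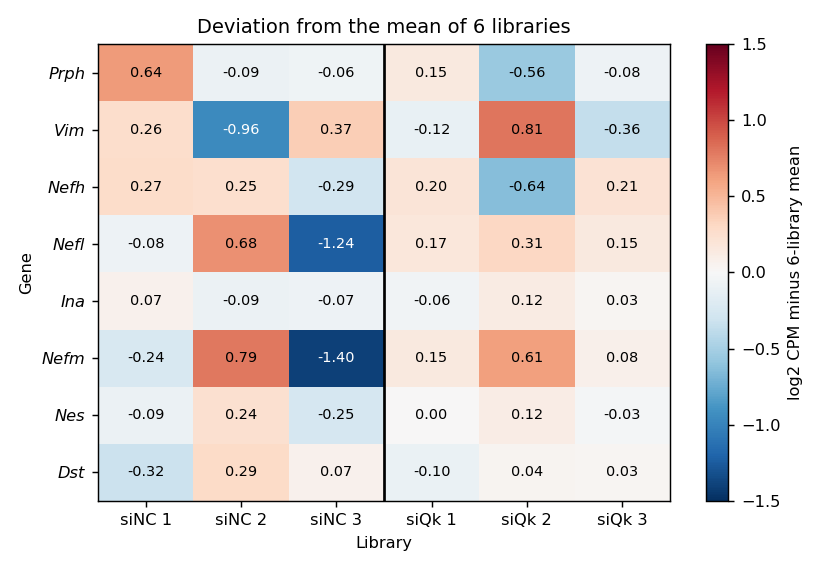
Deviation of each gene from its mean over the 6 libraries (log2 CPM, red above and blue below), genes in rows and libraries in columns, with a black line between siNC and siQk. Nefl and Nefm are deep blue in siNC 3 (-1.24 and -1.40), and Vim is blue in siNC 2 (-0.96) and red in siQk 2 (0.81).

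These library differences were set beside markers of the parent cell types. Phox2a, a regulator of noradrenergic neurons, was at 50.2 RPKM in siNC 3 against 102 to 153 RPKM in the other libraries, and Th, which makes catecholamine precursors, was at 5.43 RPKM in siNC 3 against 13.5 to 38.3 RPKM. All 7 neuroblastoma markers were detected, and their summed level was 317 to 499 RPKM in siNC and 377 to 474 RPKM in siQk. Of 7 motor neuron markers, 3 passed the filter on low values, the sums were 10.0 to 11.5 RPKM in siNC and 14.2 to 16.4 RPKM in siQk, and Chat, the enzyme that makes acetylcholine, was at 0.0297 to 0.141 RPKM, near 0 for a cell line described as motor neuron-like. Slc5a7, Mnx1 and Lhx3, further motor neuron markers, did not pass the filter either. Isl1, a motor neuron transcription factor, was at 4.83, 4.75 and 4.80 RPKM in siNC and at 9.63, 7.80 and 8.33 RPKM in siQk, a log2 fold change of 0.82 with an adjusted p of 0.9996 by the edgeR quasi-likelihood test (unadjusted p = 0.00101). The groups overlapped for the other tested motor neuron markers, Slc18a3 (log2 fold change -0.09) and Isl2 (0.21). Of 8 mesenchymal markers, Twist1 and Lum were at 0 in every library and only Pdgfrb passed the filter, while the sums were 3.13 to 5.34 RPKM in siNC and 0.975 to 2.98 RPKM in siQk. Pdgfrb alone made up most of each sum, at 3.65, 3.11 and 5.27 RPKM in siNC 1 to 3 and 2.83, 0.839 and 2.46 RPKM in siQk 1 to 3. Its log2 fold change was -1.01, with an adjusted p of 0.9996 by the edgeR quasi-likelihood test (unadjusted p = 0.036). Pdgfrb was lowest in siQk 2 (0.839 RPKM), where Vim was highest, and highest in siNC 3 (5.27 RPKM), where Vim was at 417 RPKM. Of 6 neural progenitor markers, which ordinarily accompany Nes, Sox2 and Fabp7 were at 0 and 3 passed the filter, Msi1 at 16.2 to 29.8 RPKM, Pax6 at 6.49 to 9.18 RPKM and Hes5 at 0.53 to 1.87 RPKM. The sums were 25.8 to 39.2 RPKM in siNC and 28.6 to 39.9 RPKM in siQk. None of 5 astrocyte markers passed the filter, with Aqp4 and Gja1 at 0 and sums of 0.0801 to 0.203 RPKM in siNC and 0.146 to 0.217 RPKM in siQk. The part of any marker in the member values was not tested.

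Because subunits assemble together, their proportions within a library were compared, which leaves library scaling aside. Dst is a linker and stayed out of the sum. Prph made up 61.9, 58.9 and 51.4% of the summed RPKM of the 7 subunits in siNC 1 to 3 and 57.5, 35.1 and 56.1% in siQk 1 to 3. Vim made up 26.4, 17.9 and 38.3% in siNC and 26.5, 50.1 and 25.6% in siQk. Together the type III subunits held 76.8 to 89.7%, and the ratio of Prph to Vim, 1.34 to 3.30 in 5 libraries, was below 1 in siQk 2 (0.70). The 4 type IV subunits held 11.1, 22 and 9.58% in siNC and 15.1, 13.9 and 17.4% in siQk, with the siQk libraries inside the siNC range.

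The mean share of Prph was 57.4 ± 5.42% in siNC and 49.6 ± 12.5% in siQk, and that of Vim was 27.5 ± 10.3% and 34.1 ± 13.9% (SD, n = 3 each). Nefl held 4.90 ± 3.77% and 5.74 ± 0.346%, Nefh 5.47 ± 1.63% and 5.30 ± 1.82%, and Ina 2.71 ± 0.464% and 2.99 ± 0.291%. Nefm held 1.16 ± 1.012% and 1.42 ± 0.241%, and Nes 0.871 ± 0.320% and 0.925 ± 0.0517%. None of the 7 shares differed between the groups beyond the spread of libraries, with exact two-sided permutation p from 0.5 to 1.0 and Benjamini-Hochberg adjusted values of 1.0 for each. Without siNC 2 the shares of Nefl, Nefm and Nes no longer overlapped between the groups, and without siNC 3 that of Prph did not. The siQk minus siNC difference in the share of Prph, -7.83 points, was -0.594 without siQk 2 and -11.8 without siQk 1. That of Vim, 6.56 points, turned to -1.47 without siQk 2, and was 1.73 without siNC 2, 12 without siNC 3, 10.3 without siQk 1 and 10.8 without siQk 3.

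**Figure D4:**
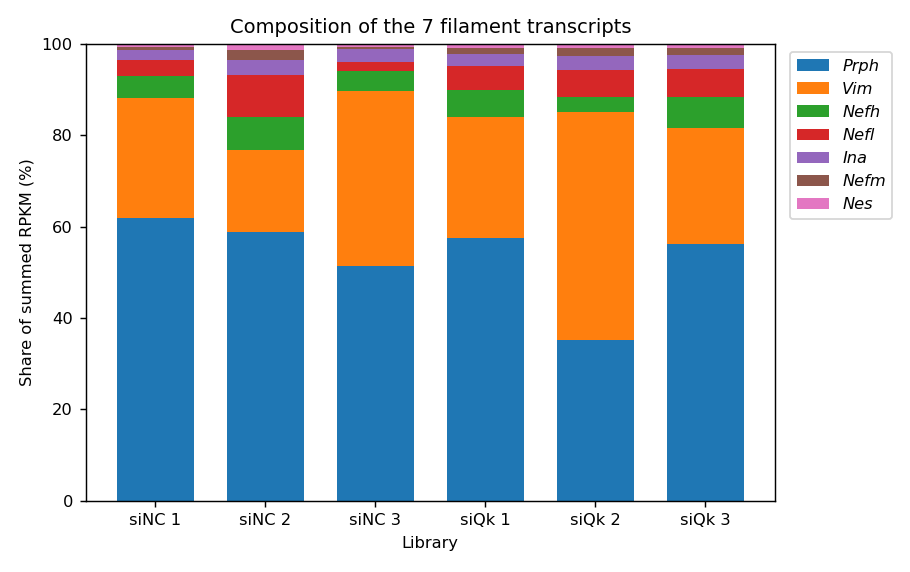
Share of each of the 7 filament subunits in their summed RPKM (percent), with 1 stacked bar per library from siNC 1 to siQk 3. Prph (blue) and Vim (orange) fill 76.8 to 89.7% of each bar, and Vim is the larger of the pair only in siQk 2.

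The ratio of Nefm to Nefl was the steadiest of the 4 ratios taken to Nefl. It ran from 0.209 to 0.289 over the 6 libraries, with a log2 difference of 0.14 between siQk and siNC (exact two-sided permutation p = 0.5, adjusted 0.933 over the 4 ratios). The ratio of Nefh to Nefl ran from 0.557 to 2.08, that of Ina to Nefl from 0.345 to 1.32 and that of Vim to Nefl from 1.95 to 18.4. Their log2 differences were -0.58, -0.36 and -0.20, with exact two-sided permutation p of 0.4, 0.7 and 1.0, and no ratio differed between the groups after adjustment. With a library left out the log2 difference ran from 0.025 (without siQk 2) to 0.23 (without siNC 2) for Nefm to Nefl, from -0.94 (without siNC 2) to -0.24 (without siQk 2) for Nefh to Nefl, from -0.83 (without siNC 2) to 0.13 (without siNC 3) for Ina to Nefl and from -1.07 (without siNC 2) to 0.55 (without siNC 3) for Vim to Nefl.

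The likeness of profiles was measured as the root mean square difference of log2 CPM over the 6 libraries after each gene was centred on its own mean. Among the 8 members the nearest pair was Nefl and Nefm (0.162), followed by Ina and Nes (0.167) and Nes and Dst (0.173), and the farthest pair was Nefm and Vim (1.06). Among all genes kept, the nearest to both Nefm (0.107) and Nefl (0.118) was A230070E04Rik. It was followed for Nefm by Nefl (0.162) and Ankle1 (0.162), and for Nefl by Ankle1 (0.127) and Pdzd4 (0.136). A230070E04Rik stood at 6.86, 13.5 and 3.40 RPKM in siNC 1 to 3 and at 8.96, 11.7 and 8.22 RPKM in siQk 1 to 3. The genes nearest to Vim were Wdr31 (0.171), Lamb2, a laminin subunit of basement membranes (0.176), and Lpxn (0.210), with Lpxn resting on 33 to 87 counts. These are descriptions over 6 libraries.

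Nefl lies at chr14:68083863-68089095 on the plus strand and Nefm at chr14:68082590-68124846 on the minus strand (GRCm38, GENCODE M21), where a long form of Nefm shares 1108 exon bases with Nefl. In the RefSeq table the genes stand 30449 bases apart, and the authors' exon length for Nefm, 3230 bases, was shorter than the 5782 exon bases of all its GENCODE forms. In the RefSeq table A230070E04Rik spans chr14:68123752-68131371, which overlaps the span of Nefm (chr14:68119545-68125004) by 1253 bases, with its exons not compared here. Ankle1 and Pdzd4, whose profiles lay nearer to Nefl than that of Nefm did, lie on chromosomes 8 and X. The library kit keeps no strand, so reads from overlapping exons cannot be assigned to a strand, and the part of shared reads in these likenesses was not tested. The other members lie apart, with Nefh at chr11:4938754-4948064 on the minus strand and Prph at chr15:99055174-99058978, Vim at chr2:13573927-13582826, Nes at chr3:87971078-87980451, Ina at chr19:47014698-47025327 and Dst at chr1:33908225-34308661 on the plus strand. Ina shared 456 exon bases with Nt5c2 on the opposite strand, Dst shared 1037 with Gm26788 and 456 with A930005N03Rik, and Nefh, Prph, Vim and Nes shared none with another gene.

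The remaining genes of the system were counted from lists of the same kind. Of 13 other intermediate filament genes 6 passed the filter and none was called, with 3 above and 3 below 0, a median log2 fold change of 0.02 and none at an unadjusted p under 0.05. The nuclear lamin gene Lmnb2 had a log2 fold change of 0.33 (SE 0.37), Des, the muscle filament, -0.53 (SE 0.57) and the lamin gene Lmna -0.18 (SE 0.30). Of 6 other plakins, the family of Dst, 3 passed the filter and none was called. Plec, which encodes plectin, had a log2 fold change of -0.25 (SE 0.18), Evpl 0.22 (SE 0.64) and Macf1, the closest relative of Dst, -0.0083 (SE 0.23). In siNC 1 to 3 Macf1 stood at 9.05, 15.9 and 11.8 RPKM, with siNC 1 lowest and siNC 2 highest as for Dst. Dsp was at 0 in every library.

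Of 21 partners of the filaments (kinases, transport motors, chaperones and turnover factors) all passed the filter and none was called, with 10 above and 11 below 0 and a median log2 fold change of -0.0017. Of these 21, 1 reached an unadjusted p under 0.05, beside 2.89% of all genes tested, and 3 had groups that did not overlap, beside 8.52% of all genes tested, and nothing about the list is read from such small counts. Cdk5r1, the activator of the neurofilament kinase Cdk5, stood at 0.855, 0.644 and 0.563 RPKM in siNC and at 1.15, 1.04 and 1.04 RPKM in siQk, so every siQk library was higher. The log2 difference came to 0.62 (SE 0.17), and the adjusted p was 0.9996 by the edgeR quasi-likelihood test (unadjusted p = 0.048). Kif5a, a kinesin that carries neurofilaments, had means of 30.4 ± 5.32 for siNC against 24.0 ± 2.74 RPKM for siQk (SD, n = 3 each) without overlap, and Mapre3, which binds microtubule ends, 22.6 ± 0.704 RPKM and 20.3 ± 0.947 RPKM without overlap. Trim2, a ubiquitin ligase for the light chain, had a log2 fold change of 0.44 (SE 0.25). None of these passed the call.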

How the data were processed

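The authors aligned 75-nt poly-A reads of 6 NSC-34 libraries (TruSeq v2, no strand) with OLego and counted genes with Quantas (versions not given in the sources used here) on the mouse genome, labelled mm10. The positions printed are those of GENCODE M21 and RefSeq. The deposited values per gene are expected counts (not whole for 21.8 to 22.9% of the listed genes, beyond a tolerance of 1e-06) and RPKM, which followed from the count, exon length and column total to a relative gap of 1.1e-14. Counts were rounded, scaled by TMM (factors 0.957 to 1.02) and tested with edgeR 4.0.16 in R 4.3.3. Genes above an average log2 CPM of 0 were kept and p-values were adjusted over all of them. SE came from log2 CPM with a prior count of 2. Intervals came from limma 3.58.1 and the DESeq2 version was 1.42.0. RPKM, shares and ratios were compared by exact permutation. Groups came from the sample titles, and the scripts were tested on simulated data. Alternatives were other scaling, filters and tests, a replicate block, and libraries left out. Named genes were the 8 members, Qk, up to 3 genes of smallest p per list, and the 3 nearest profiles of the 3 most variable members. The members and lists were chosen with earlier results of these data known. Other genes printed (Mapre3, members of the marker lists such as Phox2a, Th and Chat, genes at 0 or below the filter, and exon neighbours) were named after their values were seen. A list of oligodendrocyte markers is not reported here.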

Additional observations from a re-analysis of the deposited data

How the results depend on the processing

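None of the 8 members was called under any of 15 alternatives (smallest adjusted p 0.869). All genes called numbered 1 in the reported fit, 5 by the edgeR exact test (Qk, Snap23, Cdon, 2810055F11Rik and Daam2), 19 by DESeq2, and 0 to 1 with a library left out (0 without siNC 1, where 538 genes were at an unadjusted p under 0.05). Qk was -3.19 to -2.67 with a library left out, and -3.09 without siNC 1 (adjusted p 0.125 by the edgeR quasi-likelihood test). Directions turned with single libraries left out. Log2 fold changes were -0.12 for Vim and 0.10 for Dst without siNC 2, -0.14, -0.064 and -0.054 for Nefl, Nefm and Nes without siNC 3, 4.23e-05 for Dst without siQk 1, and 0.10 for Nefh and -0.24 for Vim without siQk 2. With a library left out the ranges were -0.14 to 0.75 for Nefl, -0.064 to 0.998 for Nefm, -0.29 to 0.10 for Nefh, -0.24 to 0.43 for Vim, -0.054 to 0.19 for Nes, -0.19 to 0.099 for Dst, 0.013 to 0.11 for Ina and -0.50 to -0.06 for Prph, of which those of Ina and Prph held 1 direction. Without siNC 3 and siQk 2 together, a setting chosen after seeing the data, they were -0.19 for Nefl, -0.25 for Nefm, -0.0042 for Ina, -0.0095 for Vim and -0.10 for Nes. The cause was not tested. The median log2 fold change with a library left out ran from -0.154 (without siNC 3) to 0.176 (without siNC 1) for the other intermediate filament genes and from -0.183 (without siNC 1) to 0.188 (without siNC 2) for the other plakins. That of the filament partners ran from -0.0093 to 0.051 with a library left out (0.051 without siNC 2). Subunit shares without overlap between groups numbered 0 to 3 (3 without siNC 2, 1 without siNC 3), and ratios 0 to 3 (3 without siNC 2).

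The labels tie same-numbered libraries by number only, so whether they were paired is not known. Deviations of same-numbered libraries correlated at 0.213, 0.018 and -0.17. With the replicate block Qk was -2.95, 1 gene and 0 members were called, and Nefl, Nefm and Prph were 0.42, 0.55 and -0.33. Limma-trend with no block gave like fold changes, -2.96 for Qk and 0.42, 0.56 and -0.33 for those genes. With the block, the edgeR quasi-likelihood test gave unadjusted p of 0.18 for Nefl, 0.084 for Nefm and 0.053 for Prph. Without the block these were 0.56, 0.48 and 0.19. With the block the other members were at 0.53 or above, and the adjusted p was 0.9997 for each member. With 3 libraries a group, the intervals leave changes of up to 2.97-fold possible for Nefm and up to 1.32-fold for Ina. Counting error was small, with at least 659 counts per member and library.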
